A study of Mus musculus with 9 samples.

Results

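Messenger RNA of 34 type I interferon-stimulated genes was followed across 9 libraries of mouse colon, 3 each from the groups Normal, Model and Atorvastatin. The genes were taken by symbol from a list drawn up with earlier results of these data known, and each of the 34 symbols was found among the 21720 genes of the deposited count table. All 34 passed the filter on low counts that left 16160 genes for testing.

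Type I interferons (the alpha family, beta and their relatives) bind a receptor made of Ifnar1 and Ifnar2, whose kinases Jak1 and Tyk2 phosphorylate Stat2. Stat2 joins Irf9 in the complex ISGF3, which binds interferon-stimulated response elements near antiviral genes. Type III interferons (lambda) reach the same complex through another receptor, Ifnlr1 with Il10rb, which in the gut is found mainly on epithelium, while interferon gamma acts mostly through GAS elements. In the intestine a basal, microbiota-dependent level of interferon-stimulated transcripts is known in healthy tissue.

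The mice were female, wild type (WT) and of strain C57BL/6 J, and whole colon was the source of RNA. Normal mice received the vehicle, 0.5% CMC-Na (sodium carboxymethyl cellulose), by gavage for 7 days. Model mice received 5% DSS (dextran sulfate sodium, a compound that injures the colonic epithelium) for 7 days, likewise by gavage. Atorvastatin mice received 10 mg/kg of atorvastatin, an inhibitor of cholesterol synthesis, in 0.2 mL once a day for 5 days, on days 3 to 7. Whether the Atorvastatin mice were also given DSS is not in the labels, nor is an age. Separate mice behind the libraries of a group are not stated either, so a p-value below measures the spread between libraries, which may be technical.

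Libraries held 72584333 to 91737502 estimated counts, of which the 34 genes took 0.371% to 0.957%. Levels are given as CPM, counts scaled to the TMM-adjusted size of each library. Where 3 values stand for a group, they are its replicates 1, 2 and 3 in that order. The colon label was checked with 9 colon identity genes, whose summed level of 11613 to 28748 CPM was mostly the goblet cell mucin Muc2 (9679 to 26320 CPM). Of the positional genes in that list, Hoxb13, a marker of the distal colon, had 1.29 and 0.406 CPM in Atorvastatin 1 and 3 against 120 in Atorvastatin 2, 25.6 to 141 in Normal and 21.2 to 241 in Model. Hoxa13 had 12.4 and 13.2 CPM in the same 2 libraries against 27.9 to 35.8 in the other 7, so the libraries differed in their colon markers. Model 2 and Model 3 stood apart from the other libraries: 18 pancreatic acinar genes summed to 101997 and 43489 CPM there against 49.0 to 3256 in the other 7, and 14 small intestinal genes summed to 992 CPM in Model 3 against 289 to 580 elsewhere. The median of the 34 genes in Model against Normal and some calls are also given without Model 2 and Model 3. Other values, among them the numbers of genes whose libraries did not overlap, include both libraries. In bulk tissue, fewer cells of a type and less RNA per cell cannot be told apart.

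The sequence that interferon-stimulated genes are known to share was looked for first. The 34 genes were listed as interferon-stimulated, so its share among them was partly fixed by that choice. RefSeq promoters (GRCm38.p6, 250 bases before to 50 after a start) were at hand for 27 of the 34 genes; Usp18, Dhx58, Zbp1, Oas2, Parp9, Parp14 and Rtp4 had no entry. The core of the interferon-stimulated response element, searched as GAAA, any 2 bases and GAAA again, occurred on either strand in 13 of these 27 genes (48.1%), against 1079 of 27025 genes with a promoter (3.99%). The letters TTCNNNGAA of the GAS element were found in 5 of the 27 (18.5%) and in 9.55% of all genes. The promoters of Isg15, Ifit1, Ifit3 and Ifit2 are shown as examples, picked after the values were seen. Isg15 differed most between the Atorvastatin libraries, and Ifit2 parted from its relatives Ifit1 and Ifit3 in the Model libraries. Whether the letters bear on either was not tested. Each line holds the 250 bases before the start, 5′ to 3′ on the gene's strand, with the letters of that core, on either strand, in capitals.

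Isg15, chr4:156200819-156201068, minus strand, with 3 matches that overlap one another: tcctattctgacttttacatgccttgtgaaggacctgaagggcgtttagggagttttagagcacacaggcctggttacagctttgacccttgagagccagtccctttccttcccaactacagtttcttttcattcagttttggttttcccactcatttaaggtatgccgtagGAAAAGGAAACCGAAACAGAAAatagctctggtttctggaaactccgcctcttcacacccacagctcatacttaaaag
Ifit1, chr19:34640639-34640888, plus strand, with 2 matches: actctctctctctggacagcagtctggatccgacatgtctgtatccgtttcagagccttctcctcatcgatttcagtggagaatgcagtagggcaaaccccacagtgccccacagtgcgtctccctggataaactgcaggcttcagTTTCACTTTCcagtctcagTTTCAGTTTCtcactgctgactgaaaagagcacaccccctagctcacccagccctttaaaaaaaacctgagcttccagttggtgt
Ifit3, chr19:34583279-34583528, plus strand, with 2 matches: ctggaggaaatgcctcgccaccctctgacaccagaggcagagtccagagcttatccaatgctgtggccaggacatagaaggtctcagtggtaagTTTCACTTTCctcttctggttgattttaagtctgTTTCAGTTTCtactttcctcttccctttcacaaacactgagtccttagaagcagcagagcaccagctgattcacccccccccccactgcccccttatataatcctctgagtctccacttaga
Ifit2, first of 2 listed starts, chr19:34550444-34550693, plus strand, with no match: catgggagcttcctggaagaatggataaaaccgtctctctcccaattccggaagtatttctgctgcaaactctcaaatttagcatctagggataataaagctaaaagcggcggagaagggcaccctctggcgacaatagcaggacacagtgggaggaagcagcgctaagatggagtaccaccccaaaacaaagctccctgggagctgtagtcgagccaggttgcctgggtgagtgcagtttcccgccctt
Ifit2, the other start, chr19:34550838-34551087, plus strand, with no match: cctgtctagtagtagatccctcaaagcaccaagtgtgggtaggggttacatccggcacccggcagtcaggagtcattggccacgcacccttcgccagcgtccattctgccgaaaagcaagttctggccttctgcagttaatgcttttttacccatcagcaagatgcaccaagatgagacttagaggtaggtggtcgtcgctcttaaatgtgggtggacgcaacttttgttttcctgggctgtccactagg

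In Isg15 the matches began 78, 72 and 66 bases before the start, in Ifit1 104 and 85 bases before it, and in Ifit3 156 and 122 bases before it. The first Ifit2 window held a TTCNNNGAA 241 bases before its start. A match is a description of the letters, and a window without one says only that these letters are not there. The core letters also occurred in the promoter windows of Stat2, Ddx58, Ifih1, Oas1a, Oas1g, Oas3, Eif2ak2, Rsad2, Bst2 and Trim30a. They were not found in the windows of the other 14 genes with a promoter entry, Irf7 and Irf9 among them.

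Expressed per kilobase of exon (exon union of GENCODE M21), the 34 genes were at moderate to high levels in healthy colon. Isg15, the ubiquitin-like modifier, had the highest level in Normal, 248 ± 63.0 CPM per kb (SD, n = 3), followed by Lgals3bp at 221 ± 16.6 and Oas1a at 189 ± 16.0. Herc6, a ligase for Isg15, had the lowest at 7.52 ± 1.38 CPM per kb, with Xaf1 next at 12.1 ± 2.33. The median of 15805 tested genes with an exon length was 3.59 CPM per kb, and each of the 34 stood above at least 66.8% of them.

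None of the 34 genes passed edgeR's quasi-likelihood test at an adjusted p of 0.05, in any of the 3 comparisons. The fit pooled the spread of the 3 groups, so the wide spread inside Atorvastatin also entered the tests of Model against Normal. In Model against Normal most of them lay lower, in Atorvastatin against Model the libraries overlapped for every gene, and the widest spread lay inside the Atorvastatin group. Model against Normal called 883 of 16160 genes (5.46%), of which 706 were higher (4.37%) and 177 lower (1.10%). Atorvastatin against Model called none of 16160 (0.00%) and Atorvastatin against Normal called 270 (1.67%), with 1.32% called higher.

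**Figure D1:**
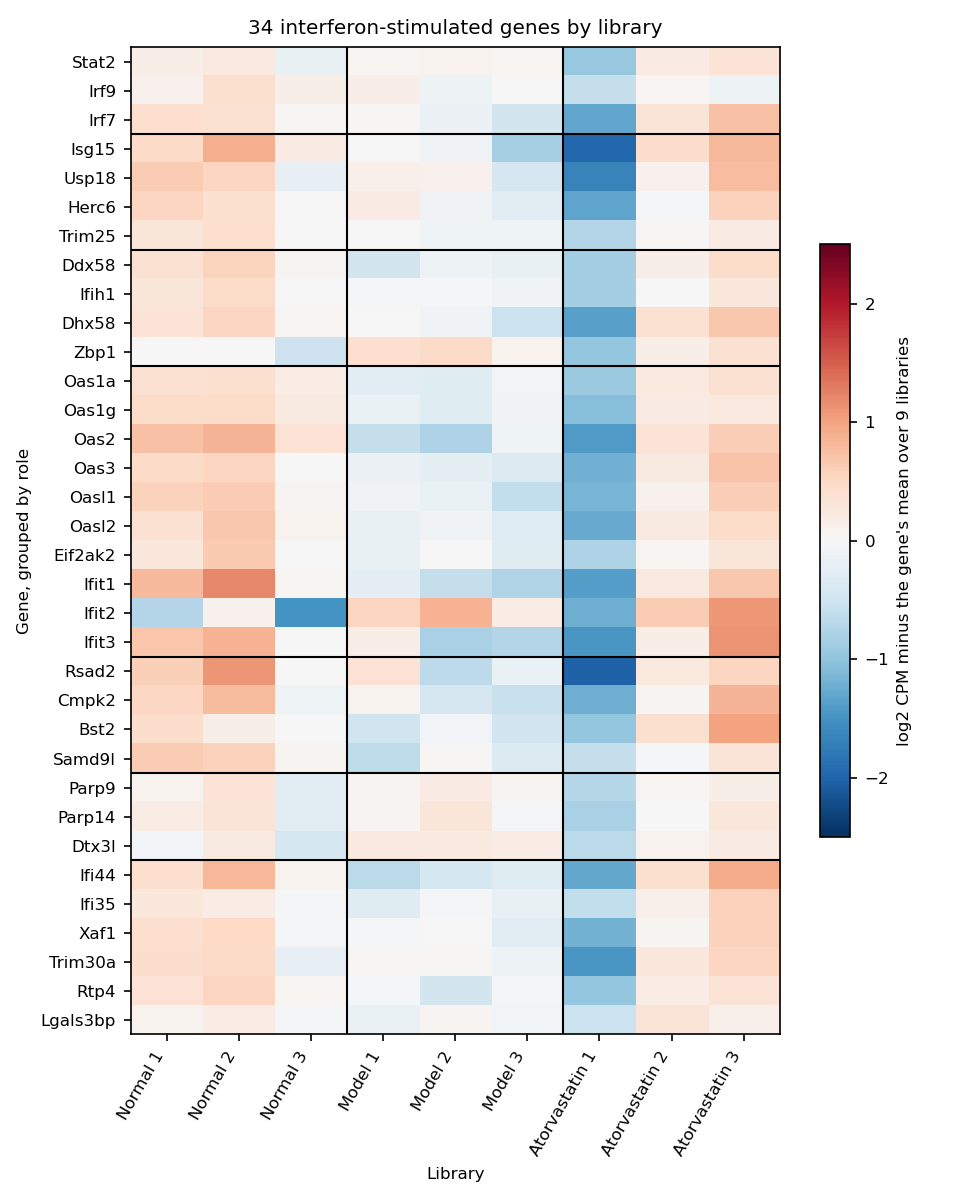
Heat map of the 34 genes (rows, grouped by role) in the 9 libraries (columns). Colour is log2 CPM minus the gene's own mean over the 9 libraries. Atorvastatin 1 is the lowest column for 32 of the 34 genes, and Ifit2 is the gene whose colours turn from low in Normal 3 to high in Model 2 and Atorvastatin 3.

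Model against Normal sets mice given DSS beside mice given CMC-Na, which the labels do not name for Model. This comparison had a median log2 fold change of -0.49 over the 34 genes, beside -0.00090 over all tested genes. Of the 34 values 29 were below 0, where 50.1% of all genes were, and 1 of the 34 crossed 0 under upper-quartile scaling. The median was -0.36 without Model 2 and 3. Markers of other cells moved in the same comparison, where 4.37% of all genes were called higher. Of 10 neutrophil genes, 8 rose (median log2 fold change 3.57, 2 called by limma-voom). So did 8 of the 12 for macrophages and monocytes (1.40), 5 of 7 from fibroblasts (1.21) and 1 of 7 from endothelium (0.86), and none of these fell. Of 10 plasmacytoid dendritic cell genes 2 rose (0.32). Of 13 mature colonocyte genes 2 rose and 1 fell (-0.21), where 1.10% of all genes were called lower. None was called of 11 T and NK cell genes (0.89, all above 0) or 8 B and plasma cell genes (-0.65). The same held for 11 epithelial genes (0.03) and 7 smooth muscle genes (-0.45, all below 0). The part of these cells in the values of the 34 genes was not tested. The values ran from -1.28 for Ifit1 to 1.11 for Ifit2. For 17 genes all 3 Model libraries lay below all 3 Normal libraries (11.7% of all genes did), and for Zbp1 and Ifit2 they lay above (14.0% of all genes). At an unadjusted p under 0.05 there were 3 genes (20.9% of all genes), and the smallest adjusted p was 0.136, for Samd9l. DESeq2 called 3 of the 34 lower, where it called 11.8% of its genes in all and 3.70% lower, and limma-voom called none. EdgeR without Atorvastatin 1 called 3 lower (0.963% of its genes). The SE and p printed for this comparison thus also reflect that library. Without it the SE was 0.21 instead of 0.43 for Oas2, 0.12 instead of 0.29 for Oas1g and 0.13 instead of 0.17 for Irf9. The edgeR adjusted p was then 0.0504 for Ifi44 and 0.0584 for Oas1a.

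**Figure D2:**
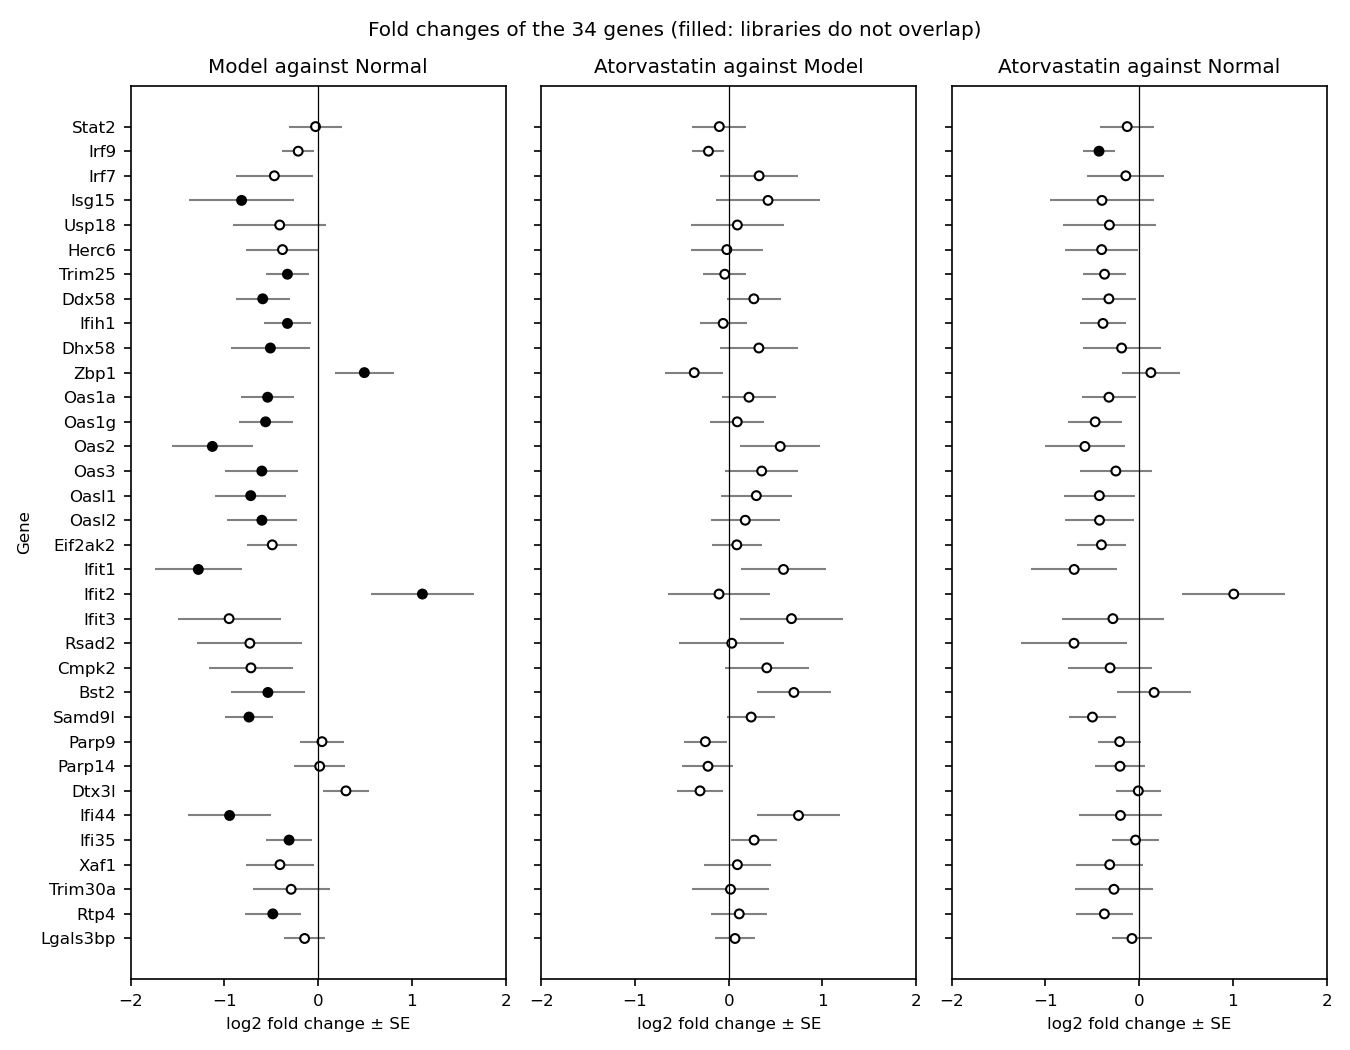
Log2 fold change of each gene with its SE in the 3 comparisons, from edgeR over 3 libraries per group. Filled points mark genes whose libraries do not overlap between the groups: 19 in Model against Normal, 0 in Atorvastatin against Model and 1, Irf9, in Atorvastatin against Normal.

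Atorvastatin against Model, which asks how colons after atorvastatin differ from those after DSS, had a median of 0.10 (all genes -0.03), with 24 values above 0 and 10 below (53.8% of all genes were below). The groups did not separate for any of the 34, where 7.90% of all genes lay wholly higher and 7.70% wholly lower. No gene of the 34 reached an unadjusted p of 0.05 (11.8% of all genes did), the smallest adjusted p was 0.530, and DESeq2 and limma-voom called none of the 34 either (DESeq2 called 2.21% of all its genes). The median was 0.48 without Atorvastatin 1 and -0.12 without Atorvastatin 3, so single libraries set its size and its sign. Atorvastatin against Normal had a median of -0.32 (all genes 0.01), with 31 values below 0 (48.7% of all genes) and 3 above. Of the 34 only Irf9 reached an unadjusted p under 0.05 (15.2% of all genes), none lay wholly higher in Atorvastatin (13.5%), and DESeq2 (6.57% of its genes called) and limma-voom called none. This median was 0.05 without Atorvastatin 1 and -0.64 without Atorvastatin 3.

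Among the signal transducers, Stat2 and Irf9 are the interferon-specific subunits of ISGF3 and Irf7 amplifies interferon alpha production. Stat2 ranged from 206 to 279 CPM in Normal, from 241 to 250.4 in Model and from 121 to 295 in Atorvastatin, with a log2 fold change of -0.03 ± 0.29 (SE) in Model against Normal. Irf9 had 89.4, 109.8 and 92.3 CPM in Normal, 92.7, 76.2 and 82.7 in Model, and 54.8, 86.0 and 75.8 in Atorvastatin. Its Atorvastatin libraries all lay below its Normal libraries, the only such case among the 34 genes (11.2% of all genes), with a log2 fold change of -0.43 ± 0.17 and an edgeR adjusted p of 0.279. Irf9 overlaps the neighbouring Rnf31 by 123 bases in the deposited coordinates, and whether counting used strand is not given in the sources used here. Irf7 had 338 to 439 CPM in Normal, 239.6 to 339 in Model and 134 to 549 in Atorvastatin.

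Isg15, Herc6, Trim25 and Usp18 belong to the system that attaches Isg15 to proteins or, in the case of Usp18, removes it and blocks the receptor. Isg15 had 177, 239 and 145 CPM in Normal, 128, 119.6 and 71.5 in Model, and 32.7, 172 and 222 in Atorvastatin. All Model libraries lay below all Normal libraries, while Atorvastatin held both the lowest library of the 9 and the second highest. The log2 fold change was -0.82 ± 0.56 in Model against Normal (edgeR adjusted p = 0.448), and Isg15 was singled out after its values were seen. Trim25, a ubiquitin ligase that activates RIG-I, had 551, 595 and 445 CPM in Normal, 443, 413 and 412 in Model, and 268, 454 and 509 in Atorvastatin. The Model libraries were again the lower ones, with 443 CPM in Model 1 against 445 in Normal 3. Usp18 and Herc6 overlapped between Normal and Model, with fold changes of -0.41 and -0.38 on the log2 scale.

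Of the nucleic acid sensors, Ddx58 (RIG-I), Ifih1 (MDA5) and Dhx58 (LGP2) are cytosolic RNA receptors, and Zbp1 binds Z-form nucleic acids and can start necroptosis. Ddx58 had 111, 125 and 89.3 CPM in Normal, 62.2, 78.4 and 75.5 in Model, and 47.4, 94.9 and 118 in Atorvastatin. Its Model libraries lay below its Normal libraries, at a log2 fold change of -0.59 ± 0.29 (edgeR adjusted p = 0.283), and so did those of Ifih1 at -0.33 and Dhx58 at -0.51. Zbp1 went the other way, with 228, 229 and 161 CPM in Normal, 306, 319 and 243 in Model, and 117, 255 and 301 in Atorvastatin. Every Model library of Zbp1 lay above every Normal library, at 0.49 ± 0.31 (edgeR adjusted p = 0.411). In Atorvastatin against Model its value was -0.37 ± 0.31 (edgeR adjusted p = 0.697), the lowest of the 34, and Atorvastatin 2 and 3 lay inside the range of the Model libraries.

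The RNA-binding effectors are the oligoadenylate synthetases and their relatives, which switch on RNase L or act beside it, the kinase Eif2ak2 (PKR), which halts translation, and the Ifit proteins, which bind foreign RNA. Oas2 had 336, 366 and 260.5 CPM in Normal, 133, 118 and 188 in Model, and 76.5, 256 and 312 in Atorvastatin. Normal and Model did not overlap, at a log2 fold change of -1.13 ± 0.43 and an edgeR adjusted p of 0.173. DESeq2 gave Oas2 an adjusted p of 0.0451, the edgeR fit on only the 2 groups 0.0440, and edgeR without Atorvastatin 1, a library outside this comparison, 0.0271. Over all 18 alternatives its adjusted p ran from 0.0271 to 0.367, with a fold change below 0 throughout.

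Oas1a, Oas1g, Oas3, Oasl1 and Oasl2 all had Model libraries below their Normal libraries too, at log2 fold changes from -0.72 for Oasl1 to -0.54 for Oas1a, and none passed the test. Oas1g, singled out after its values were seen, had 228, 230.0 and 193 CPM in Normal, 149, 135 and 157 in Model, and 80.0, 193 and 197 in Atorvastatin. Its adjusted p of 0.310 became 0.0375 in edgeR without Atorvastatin 1 and ranged up to 0.557 over the alternatives. Oas1a and Oas1g share 57.6% of the 50-base words of the longest Oas1a transcript, so reads between them may have been split by the counting and each value is uncertain. Eif2ak2 overlapped between the groups by the Normal 3 and Model 2 libraries, both at 131 CPM.

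Ifit1, Ifit2 and Ifit3 lie in a cluster on chromosome 19 that also holds Ifit1bl1, Ifit3b and Ifit1bl2. The deposited table places Ifit1 at chr19:34618271-34627409, Ifit2 at chr19:34528094-34553819 and Ifit3 at chr19:34560931-34566131. Ifit1 had 249.6, 325 and 147 CPM in Normal, 119.9, 94.0 and 83.8 in Model, and 54.5, 167 and 225 in Atorvastatin. Model lay wholly below Normal, at a log2 fold change of -1.28 ± 0.46 and an edgeR adjusted p of 0.153, the lowest fold change of the 34. DESeq2 called it (adjusted p = 0.0295), as did edgeR without Atorvastatin 1 (0.0468), and over the alternatives the adjusted p reached 0.496.

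Ifit3 had 123, 139 and 76.4 CPM in Normal, 85.9, 43.5 and 45.6 in Model, and 27.8, 85.0 and 166 in Atorvastatin. Normal 3 lay below Model 1, so the groups overlapped, at -0.95 ± 0.55 (edgeR adjusted p = 0.367). In Atorvastatin against Model Ifit3 stood at 0.67 ± 0.55 (edgeR adjusted p = 0.682) and at -0.04 without Atorvastatin 3. It shares 51.2% of its 50-base words with its copy Ifit3b, so its level is uncertain in the same way as that of Oas1a.

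Ifit2 had 219, 393 and 129.7 CPM in Normal, 529, 660.3 and 414 in Model, and 157, 567 and 769 in Atorvastatin. Here the Model libraries lay above all Normal libraries, the reverse of Ifit1, at 1.11 ± 0.55 (edgeR adjusted p = 0.293). In Atorvastatin against Normal the value was 1.01 ± 0.55 (edgeR adjusted p = 0.436), with Atorvastatin 1 inside the Normal range. The ratio of Ifit2 to Ifit1 estimated counts, which no scaling between libraries affects, was 0.878, 1.21 and 0.880 in Normal, 4.41, 7.03 and 4.94 in Model, and 2.88, 3.39 and 3.42 in Atorvastatin. The groups did not overlap in this ratio, and Atorvastatin 1, low for both genes, kept the ratio of its group. The ratio of Ifit2 to Ifit3 was 1.78, 2.83 and 1.70 in Normal, 6.16, 15.2 and 9.07 in Model, and 5.65, 6.67 and 4.64 in Atorvastatin, where Model and Atorvastatin overlapped. Both ratios were chosen after the values were seen and were not tested. Ifit1 and Ifit2 share none of their 50-base words.

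**Figure D3:**
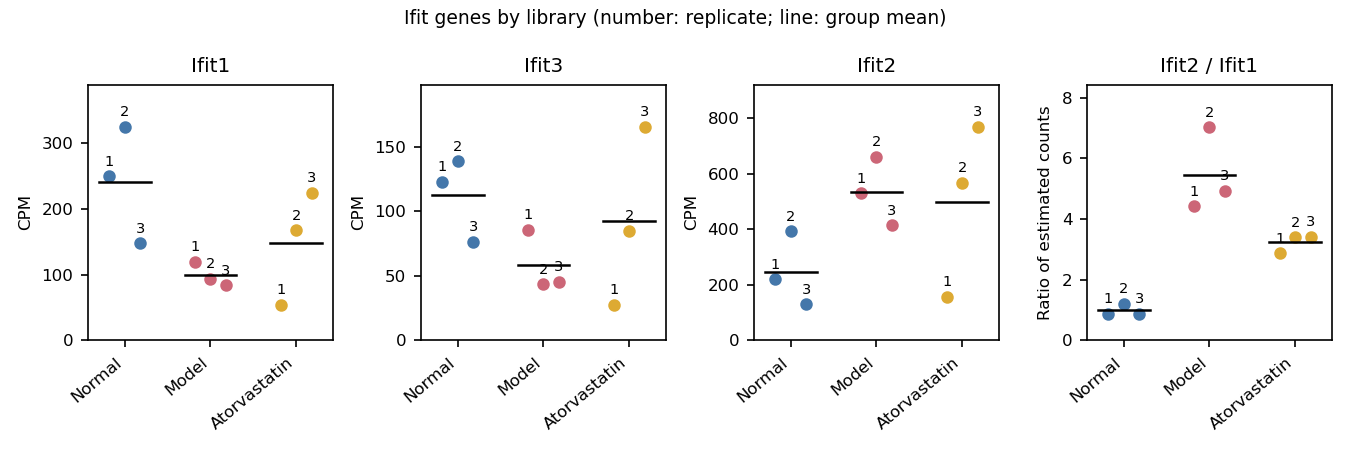
CPM of Ifit1, Ifit3 and Ifit2 and the ratio of Ifit2 to Ifit1 estimated counts, by group, with 1 point per library (numbered by replicate) and a line at the group mean. The ratio lies between 0.878 and 1.21 in Normal, between 2.88 and 3.42 in Atorvastatin and between 4.41 and 7.03 in Model.

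Rsad2 (viperin, which makes a chain-terminating nucleotide), Cmpk2 (the nucleotide kinase beside it), Bst2 (tetherin, which holds budding virions to the cell) and Samd9l (an antiviral factor that blocks translation) act on nucleotides, membranes or protein synthesis. Samd9l had 170.3, 164 and 116 CPM in Normal, 71.0, 112 and 86.9 in Model, and 73.5, 108 and 137 in Atorvastatin. The Model libraries lay below the Normal ones, at -0.74 ± 0.26 with an edgeR adjusted p of 0.136, and DESeq2 called the gene at 0.0492 (range over the alternatives 0.0492 to 0.346). Rsad2 had 98.0, 139.9 and 64.0 CPM in Normal, 83.6, 41.1 and 57.6 in Model, and 16.0, 76.2 and 94.3 in Atorvastatin. Its groups overlapped in each comparison, and the value of -0.70 ± 0.56 in Atorvastatin against Normal (edgeR adjusted p = 0.627) was the lowest of the 34 there.

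Bst2 had 74.6, 61.0 and 55.3 CPM in Normal, 39.0, 52.9 and 39.8 in Model, and 28.3, 73.3 and 112 in Atorvastatin. Model lay below Normal at -0.54 ± 0.40 (edgeR adjusted p = 0.487). Atorvastatin stood at 0.70 ± 0.40 against Model, with the smallest p of that comparison among the 34 genes (edgeR adjusted p = 0.530), and its lowest library was below every Model library.

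Parp9 and Dtx3l form a complex that ADP-ribosylates and ubiquitinates proteins in the interferon response, and Parp14 is a mono-ADP-ribosyltransferase. Parp9 had 255, 304 and 199 CPM in Normal, 251, 276 and 252 in Model, and 145, 247 and 264 in Atorvastatin. Dtx3l had 258, 314 and 198 CPM in Normal, 321, 318 and 308 in Model, and 168, 287 and 310.3 in Atorvastatin. Neither gene separated the groups, with log2 fold changes of 0.04 ± 0.23 for Parp9 and 0.30 ± 0.24 for Dtx3l in Model against Normal (edgeR adjusted p = 0.945 and 0.534). The ratio of Dtx3l to Parp9 counts was 1.01 ± 0.0205 in Normal, 1.22 ± 0.0624 in Model and 1.17 ± 0.0100 in Atorvastatin (SD, n = 3, no test), with Normal below the other groups in every library. The genes overlap by 682 bases in the deposited table, so part of their reads may have been shared. Parp14 had a fold change of 0.02 ± 0.27.

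Ifi44, Ifi35, Xaf1, Trim30a, Rtp4 and Lgals3bp are induced by interferon with less uniform roles, among them apoptosis for Xaf1, restriction of flaviviruses for Rtp4 and galectin binding for the secreted Lgals3bp. Ifi44 had 79.4, 106 and 63.6 CPM in Normal, 37.3, 43.8 and 48.3 in Model, and 24.6, 78.4 and 114 in Atorvastatin. Model lay below Normal without overlap, at -0.95 ± 0.45 (edgeR adjusted p = 0.267), and Atorvastatin had values on both sides of the Model range, at 0.74 ± 0.44 (adjusted p = 0.551). Ifi35 and Rtp4 also had all Model libraries below all Normal libraries, at -0.31 and -0.48. Xaf1, Trim30a and Lgals3bp overlapped, at -0.41, -0.29 and -0.14. Rtp4 overlaps Masp1 by 525 bases and Irf7 overlaps Phrf1 by 45.

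The widest spread of the 34 genes lay inside the Atorvastatin group. Atorvastatin 1 was the lowest of its 3 libraries for 34 of 34 genes (37.1% of all genes), and the lowest of all 9 for 32 (13.7% of all genes). The exceptions were Ifit2, lowest in Normal 3, and Samd9l, lowest in Model 1. Atorvastatin 3 was the highest of the group for 32 of the 34, with 34.4% of all genes highest there. In log2 CPM, Atorvastatin 1 minus the mean of Atorvastatin 2 and 3 had a median of -1.50 over the 34 genes, from -2.58 for Isg15 and -2.41 for Rsad2 to -0.56 for Irf9. It was below -1 for 24 of the 34, as for 5.86% of all tested genes. Isg15 was thus 5.97-fold and Rsad2 5.30-fold lower in this library than in the other two, as a description of 1 library with no test.

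**Figure D4:**
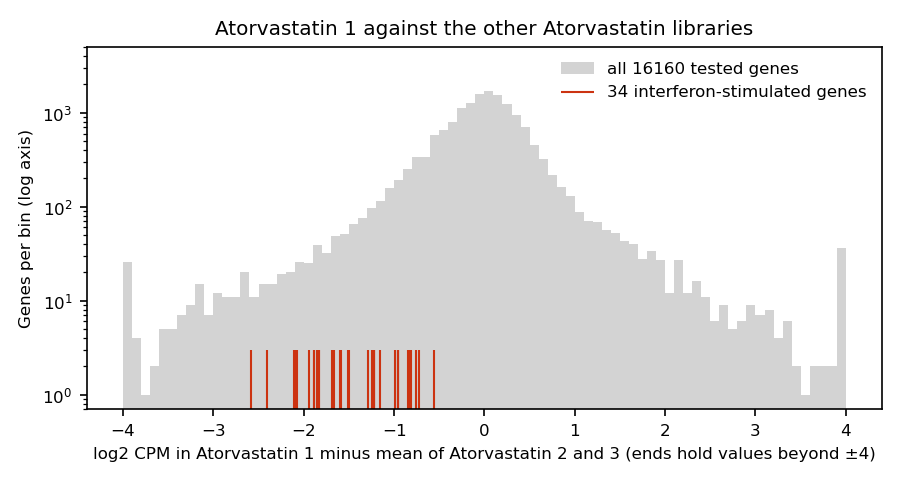
Histogram of log2 CPM in Atorvastatin 1 minus the mean of Atorvastatin 2 and 3 for the 16160 tested genes (grey, log axis of genes per bin), with the 34 interferon-stimulated genes as red lines. The red lines run from -2.58 to -0.56, all left of 0, while the grey distribution is centred near 0.

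The mean log2 CPM over the 34 genes was 7.49, 7.65 and 7.07 in Normal, 7.07, 7.03 and 6.89 in Model, and 6.04, 7.32 and 7.66 in Atorvastatin. Group means were 7.41 ± 0.298 for Normal, 7.00 ± 0.0932 for Model and 7.01 ± 0.856 for Atorvastatin (SD, n = 3). The median SD of a single gene in log2 CPM was 0.906 within Atorvastatin, against 0.249 for all tested genes, and it exceeded that figure for 34 of 34. Within Model the median SD was 0.184 (all genes 0.296) and within Normal 0.293 (all genes 0.211). Normal 3 was the lowest Normal library for 33 of 34 genes (31.9% of all genes), with a median of -0.47 against the other two.

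Other lists were low in the same library. The 58 interferon-stimulated genes outside the 34 summed to 3817 CPM in Atorvastatin 1 against 7746 and 9440 in Atorvastatin 2 and 3, and Atorvastatin 1 was the lowest of 9 for 32 of the 55 tested. The 25 interferon gamma targets summed to 1801 against 3527 and 3913. The 11 epithelial genes summed to 14885 CPM in Atorvastatin 1 against 18937 and 18096, the 13 mature colonocyte genes to 12443 against 18749 and 17487, and the 8 B and plasma cell genes to 186 against 252 and 354. The 7 fibroblast genes summed to 939 against 720 and 717, the 12 macrophage genes to 528 against 578 and 592, and the 18 acinar genes to 3256 against 1506 and 49.0. Neutrophil genes were higher there: in log2 CPM, Atorvastatin 1 minus the mean of the other 2 had a median of 1.63 over the 10 genes and was below 0 for 1, with S100a9 at 38.0 CPM against 7.44 and 4.44. The same difference had a median of -0.79 over the 9 colon identity genes, with 7 below 0. The part of these in the low interferon-stimulated level of Atorvastatin 1 was not tested.

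**Figure D5:**
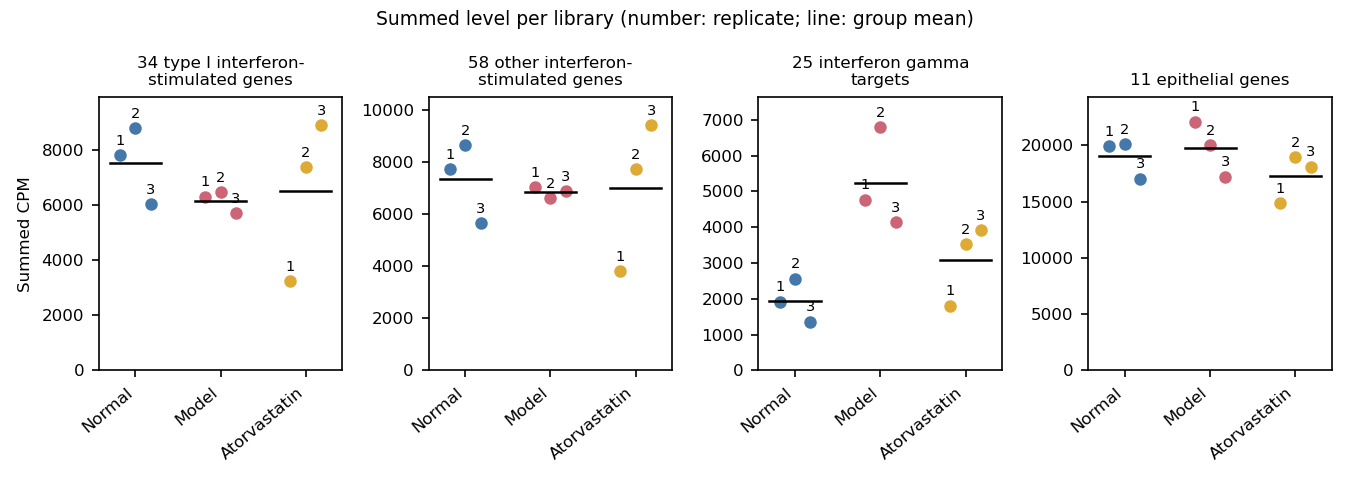
Summed CPM per library for the 34 genes, 58 other interferon-stimulated genes, 25 interferon gamma targets and 11 epithelial genes, with points numbered by replicate and a line at each group mean, on axes from 0. Atorvastatin 1 is the lowest point of its group in each panel: 3225 CPM for the 34 genes, 3817, 1801 and 14885 for the others.

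A ratio of 2 genes within a library sets aside what both share there. The ratio of Zbp1 to Oas2 counts ran from 0.616 to 0.679 in Normal, from 1.29 to 2.69 in Model and from 0.964 to 1.53 in Atorvastatin, so that Normal lay below both other groups and these overlapped. The ratio of Oas1a to Oas1g ran from 1.63 to 1.67 in Normal, 1.59 to 1.72 in Model and 1.74 to 1.88 in Atorvastatin. That of Rsad2 to Cmpk2 ran from 1.46 to 1.70, 1.17 to 1.80 and 0.788 to 1.54 in the same order. Normal and Model thus overlapped in both. No ratio, that of Dtx3l to Parp9 included, was planned before the values were seen, and each is a description.

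Transcripts of the interferons themselves were scarce. Of 21 interferon ligand genes, 14 had 0 counts in every library, Ifnb1 and the epithelial Ifne among them, where 0 counts allow up to 3 read pairs, or 12 estimated counts, per library. Ifna7 and Ifnab had 4 estimated counts, about 1 read pair, in 1 library each. The lambda interferons reached 24 estimated counts for Ifnl2 (Atorvastatin 2) and 27 for Ifnl3 (Atorvastatin 3). Only Ifng and Ifnk passed the filter. Ifng, the T and NK cell interferon, had 37, 84 and 4 estimated counts in Normal, 163, 151 and 83 in Model, and 70, 42 and 132 in Atorvastatin. The difference of Model from Normal did not pass the test (1.61 ± 0.84, edgeR adjusted p = 0.317).

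Of 9 receptor and kinase genes 1 rose in Model against Normal and none in the other comparisons. For this list and those below, 4.37% of all genes were called higher in Model against Normal and 1.10% lower. Ifnar2, the type I receptor chain, had 10.96, 9.80 and 5.97 CPM in Normal, 24.1, 26.8 and 19.1 in Model, and 18.9, 16.9 and 18.6 in Atorvastatin. It rose by 1.39 ± 0.23 in Model (log2, edgeR adjusted p = 0.0137), a call that held in 9 of 9 fits without 1 library and was lost without Model 2 and 3 together (adjusted p = 0.0556, the highest over its alternatives, which began at 3.18e-06). Ifnar1 stood at 0.33 ± 0.11 (edgeR adjusted p = 0.118), the lambda receptor Ifnlr1 at 0.30 ± 0.15 (0.299) and, in Atorvastatin against Model, Ifnlr1 at -0.47 ± 0.15 (0.332) and the kinase Jak2 at -0.43 ± 0.14 (0.331).

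Of 8 interferon transcription factors outside the 34, Stat3 and Irf1 rose in Model against Normal. Stat3, which carries the response to IL-6 family cytokines as well, had 141, 136 and 118 CPM in Normal, 279, 267 and 219 in Model, and 197, 201 and 214 in Atorvastatin. It rose by 0.95 ± 0.13 (edgeR adjusted p = 0.00706) and kept the call without any 1 library. Its rise in Atorvastatin against Normal, 0.63 ± 0.13 (edgeR adjusted p = 0.0491), was kept in 1 of 9 fits without 1 library, that without Model 3; the adjusted p in the other 8 lay between 0.0618 and 0.216. It was also lost with DESeq2 size factors (0.0535), without the filter (0.0540), by limma-voom (0.0567) and with the replicate block (0.122). Irf1, itself induced by interferons, had 334, 409 and 326 CPM in Normal, 637, 631 and 538 in Model, and 331, 442 and 407 in Atorvastatin. Its rise of 0.76 ± 0.17 (edgeR adjusted p = 0.0353) held only without Model 3 or without Atorvastatin 1, with adjusted p from 0.0510 to 0.159 when any other library was left out, and was also lost without Model 2 and 3 together (0.0871), with only the 2 groups (0.0679) and with the replicate block (0.0780). Irf3, which starts interferon beta transcription, had -0.25 ± 0.12 (0.295).

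Among 8 genes listed as feedback inhibitors, Socs3, which restrains Stat3 signalling, rose in Model. It had 22.9, 17.6 and 9.10 CPM in Normal, 165, 126 and 103 in Model, and 90.6, 58.0 and 64.7 in Atorvastatin. The rise was 2.99 ± 0.34 in Model (edgeR adjusted p = 0.00431, kept without any 1 library) and 2.10 ± 0.33 in Atorvastatin against Normal (edgeR adjusted p = 0.0211). The latter was lost without Normal 1, Normal 2, Normal 3, Atorvastatin 1 or Atorvastatin 3, at adjusted p from 0.0510 to 0.0724. Socs1, the main brake on the interferon receptors, had 5.18, 4.46 and 3.56 CPM in Normal, 15.6, 23.3 and 0.468 in Model and 4.36, 8.46 and 12.0 in Atorvastatin, with Model 3 far below its group (1.57 ± 0.95, edgeR adjusted p = 0.386). Without Model 3 it was called, at 2.14 with an edgeR adjusted p of 0.0213, while it was 0.87 without Model 2 and 0.51 by limma-voom, and the adjusted p ranged up to 0.853 over the alternatives. The list also holds Nlrc5 and the nuclease Isg20, which did not pass in any comparison.

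Of 13 genes for sensing upstream of interferon, Sting1, the adaptor of the cyclic dinucleotide pathway, and Tlr8 rose in Model against Normal and none fell. Sting1 had 15.6, 22.2 and 13.5 CPM in Normal, 36.8, 33.3 and 35.3 in Model, and 32.8, 30.6 and 27.6 in Atorvastatin (1.04 ± 0.18, edgeR adjusted p = 0.0166). Without Normal 1, Normal 3 or Model 1 its adjusted p was 0.0565 to 0.0734, and without Model 2 and 3 together the call was lost as well. Tlr8 had 0.347 to 0.511 CPM in Normal and 0.964 to 1.67 in Model (1.71 ± 0.41, edgeR adjusted p = 0.0459), a call kept in only 1 of 9 fits, that without Model 3, with adjusted p from 0.0586 to 0.176 in the others. It was kept by DESeq2, with its size factors and with counts divided by 4, and lost under the other 6 alternatives, at 0.0508 to 0.109.

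Of the 55 tested interferon-stimulated genes outside the 34, 5 rose and 1 fell in Model against Normal, with a median of -0.08. Ifitm1, an inhibitor of viral entry that epithelial and stromal cells also express, had 14.8, 19.0 and 12.1 CPM in Normal, 115, 87.7 and 57.2 in Model, and 82.1, 53.5 and 64.3 in Atorvastatin. It rose by 2.51 ± 0.29 in Model (edgeR adjusted p = 0.00431, kept without any 1 library) and by 2.13 ± 0.28 in Atorvastatin against Normal (0.0133), the latter lost without Normal 1 or Normal 3 (0.0613 and 0.0824). Its relatives Ifitm3 (0.73), Ifitm2 (0.70) and Ifitm6 (2.20) and the DNA sensor family member Ifi205 (1.66) rose in Model as well, with edgeR adjusted p from 0.0145 to 0.0451; each lost its call without Normal 3 and without Model 2 and 3 together. In fits without 1 library the call was kept in 7 of 9 for Ifitm3, 3 for Ifitm2, 2 for Ifi205 and 1 for Ifitm6. The replicate block ended the calls of Ifitm2, Ifi205 and Ifitm6 (0.0749 to 0.122), the fit on only the 2 groups those of Ifi205 and Ifitm6, and limma-voom that of Ifitm6. Slfn9 fell by 1.18 ± 0.20 (edgeR adjusted p = 0.0146), with 56.0 to 64.1 CPM in Normal against 19.2 to 35.6 in Model, and had an adjusted p of 0.0649 without Normal 3. Ifitm2 and Ifitm3 also rose in Atorvastatin against Normal, by 0.79 and 0.81, at edgeR adjusted p of 0.0365 and 0.0196; both calls were lost without Normal 1, Normal 3, Atorvastatin 1 or Atorvastatin 3 and with the replicate block (0.116 and 0.0619), and that of Ifitm2 by limma-voom (0.0527). In Atorvastatin against Model none of the 55 passed.

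The interferon gamma targets differed from the 34 genes in direction. Of 25 tested, 13 rose in Model against Normal (4.37% of all genes), all 25 values were above 0 and the median was 1.41. Of all genes 50.1% lay below 0 there. Gbp5, a guanylate-binding protein, had 17.7, 23.9 and 11.7 CPM in Normal, 106, 103 and 54.4 in Model, and 39.6, 54.3 and 59.8 in Atorvastatin. It rose by 2.30 ± 0.33 (edgeR adjusted p = 0.00836) and was the only one of the 13 to keep its call in all 9 fits without 1 library, where the other 12 kept it in 1 to 8. The chemokine Cxcl9 rose by 1.89 ± 0.34 (0.0175), the transactivator of MHC class II genes Ciita by 1.82 ± 0.40 (0.0353) and the tryptophan-degrading enzyme Ido1 by 4.47 ± 0.85 (0.0214), and each of these calls was lost without Normal 3 and without Model 2 and 3 together. The others that rose were Batf2, Serpina3g, Wars, Gbp2, Gbp4, Gbp8, Iigp1, Tgtp1 and Tgtp2. In Atorvastatin against Model none passed, with all 25 values below 0 (53.8% of all genes) and a median of -0.64. This median was -0.43 without Atorvastatin 1, the lowest library of its group for each of the 25 genes. In Atorvastatin against Normal Cxcl9 alone rose (1.81 ± 0.34, edgeR adjusted p = 0.0362), where 1.32% of all genes were called higher. That call was lost without Normal 1, Normal 3, Model 1 or any Atorvastatin library. It was also lost without Model 2 and 3 together, with only the 2 groups and with the replicate block. The block also ended the Model calls of Ciita, Gbp4, Gbp8, Tgtp1 and Tgtp2 (0.0538 to 0.0948), and the fit on only the 2 groups those of Serpina3g, Iigp1, Tgtp1 and Tgtp2 (0.0513 to 0.0632). The 12 macrophage and monocyte genes summed to 220 to 367 CPM in Normal, 684 to 744 in Model and 528 to 592 in Atorvastatin, and the part of infiltrating cells in these values was not tested. The response element core was present in the promoters of 10 of 16 gamma targets (62.5%) and of 29 of 49 interferon-stimulated genes outside the 34 (59.2%), and TTCNNNGAA in 8 of the 16 and 5 of the 49 (10.2%).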

How the data were processed

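Colon RNA, 1.3 µg per library, was sequenced for 9 libraries, per the labels' protocols. What the authors deposited are estimated counts for each gene, as whole numbers without scaling. The submitters' processing notes name bcl2fastq 2.0, HISAT2, StringTie, DESeq2, rn6 and mm39 and give no roles. Gene coordinates are printed as in the deposited table, which does not state its build; promoter coordinates are GRCm38.p6. Low values gather at multiples of 4 (1997 values of 4, 346 of 1), so about 4 estimated counts were taken to stand for 1 read pair, and floors cover counting error only.

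In R 4.3.3, edgeR 4.0.16 was run on the 16160 of 21720 genes that filterByExpr kept. Scaling was by TMM, and 1 quasi-likelihood fit without covariates covered the 3 groups. P-values of the pairwise, two-sided tests were adjusted by Benjamini-Hochberg across the 16160 genes, with 0.05 as the threshold. The SE is the absolute log2 fold change over the square root of F, and log2 CPM used a prior count of 2. An exact permutation test of 3 libraries against 3 cannot go below p = 0.1 (two-sided), and none was used.

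The 34 genes and the 20 gene lists were chosen with earlier results of these data known. Genes given in full are those past the threshold, the smallest p in each role, and the 3 largest rises and falls of each comparison; others are marked as singled out. Some genes that the rule picks are left out of the text. Alternatives were DESeq2 1.42.0 (its size factors in edgeR, and its Wald test), upper-quartile scaling, no filter, limma-voom (limma 3.58.1), a fit on only the 2 groups compared, counts divided by 4, a block for the replicate number, each library left out, and Model 2 and 3 left out together. Figures were drawn with matplotlib 3.10.9.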

Additional observations from a re-analysis of the deposited data

How the results depend on the processing

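The medians over the 34 genes stayed below 0 in Model against Normal under all 18 alternatives, and only the fits without Atorvastatin 1 or Atorvastatin 3 changed the sign of the other 2 medians. All genes called in Model against Normal (883 in the test as reported) numbered 1973 by DESeq2, 474 with only the 2 groups, 402 with the replicate block, 476 without Model 2 and 3 together and 164 to 1164 without 1 library. Of the 34 genes, DESeq2 called 3, the fit on only the 2 groups 1, and the fits without 1 library 0 to 3. In Atorvastatin against Model DESeq2 called 325 genes and the fits without 1 library 0 to 1. In Atorvastatin against Normal (270) DESeq2 called 1078, limma-voom 141, the replicate block 104 and the fits without 1 library 17 to 382. Of the 34 values, 18 changed sign in Atorvastatin against Model without Atorvastatin 3, 16 in Atorvastatin against Normal without Atorvastatin 1, and at most 6 under any other alternative. Among them, Ifit3 in Atorvastatin against Model was -0.042 to 1.12 without 1 library, Zbp1 in Atorvastatin against Normal -0.15 to 0.44, and Bst2 there -0.33 to 0.54, and -0.042 by limma-voom; the cause was not tested. Same-numbered libraries correlated at -0.28 to 0.23 in their deviations from the group means, so the numbers were not taken to pair them; none of the 34 genes was called under the block. Depth limits the ligands, which hold few read pairs.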
